A study of Homo sapiens with 24 samples.

Results

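NODAL, GDF3, LEFTY1, LEFTY2, CER1 and FOXH1, the genes of Nodal signalling that are switched on in pluripotent cells, were followed by RNA-seq over 4 genotypes and 2 stages of human cells. They were picked by symbol from the table of raw counts and are 6 of its 61551 genes. All 6 were found, and all 6 had counts in every hESC library.

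Nodal is a secreted factor of the TGF-beta family that binds activin receptors together with a co-receptor and sends SMAD2 and SMAD3 into the nucleus. There the SMADs pair with the DNA-binding factor FOXH1 and switch on target genes, among them NODAL itself and the LEFTY genes, whose products block Nodal. This loop of activation and feedback inhibition operates in human embryonic stem cells (hESCs), where SMAD2/3 activity helps to hold pluripotency, and its shutdown accompanies neural differentiation.

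The cells were H9 hESCs, an established line, which were unedited (hHAR123, also labelled WT), had both alleles of the intronic element HAR123 deleted (HAR123-KO), or carried the chimpanzee (cHAR123) or mouse (mHAR123) version of HAR123 in place of the human one. Each genotype was sequenced as untreated hESCs (ESC) and as neuroectoderm (ECTO), with 3 libraries per genotype and stage and 24 in all. The neuroectoderm had been cultured for 5 days with Noggin at 500 ng/ml, which blocks BMP ligands, and SB431542 at 10 µM, which inhibits ALK4, ALK5 and ALK7. ALK4 and ALK7 are the type I receptors for Nodal, so that at this stage every genotype had been grown with an inhibitor of these receptors, and the stage and the inhibitors cannot be told apart. Each genotype was represented by 2 clones, and the clone of each library was not given, so that p-values measure the spread between these libraries and an effect of genotype cannot be told apart from one of the clones. HAR123 lies outside exons, and exon counts do not check its deletion.

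Total counts were 23334732 to 35198684 per library in hESCs and 21022748 to 25978892 in neuroectoderm. The summed level of 7 pluripotency markers was 4020 to 4234 CPM (counts scaled by the total of the library) in the hESC libraries and 1642 to 2304 CPM in neuroectoderm, and that of 8 neuroectoderm markers was 43.6 to 60.1 CPM and 857.5 to 1593 CPM. In hHAR123 neuroectoderm most of the pluripotency sum was LIN28A (mean 1555 CPM) and SOX2 (541.8 CPM). SOX2 was the only one of these markers above its hHAR123 hESC mean (206.2 CPM). POU5F1 went from 1139 to 15.4 CPM and NANOG from 157.0 to 1.26 CPM. In neuroectoderm the names of the replacement genotypes are uncertain, because the base means in the study's own table assign the columns labelled cHAR123 to mHAR123 and those labelled mHAR123 to cHAR123. For that stage the text therefore speaks of libraries labelled cHAR123 or mHAR123. If the names are exchanged in neuroectoderm only, a comparison of stages under a replacement label sets cHAR123 hESCs against mHAR123 neuroectoderm, or the reverse. In hESCs the table and the column labels matched.

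The 6 genes all lie on the reverse strand in GRCh38. LEFTY1 (ENSG00000243709, chr1:225886282-225911382) and LEFTY2 (ENSG00000143768, chr1:225936598-225941383) are neighbours. NODAL (ENSG00000156574) is at chr10:70431936-70447951, CER1 (ENSG00000147869) at chr9:14719724-14722733 and GDF3 (ENSG00000184344) at chr12:7689784-7695775. The promoters of the 3 secreted factors with a RefSeq entry (GRCh38.p14) are shown, since these genes are described as targets or partners of the FOXH1 and SMAD complex. Each is the 250 bases before the RefSeq start on the gene's strand, at chr10:70441682-70441931 for NODAL, chr9:14722734-14722983 for CER1 and chr12:7695776-7696025 for GDF3. Capitals mark matches on either strand to AATNCACA, a FOXH1 motif, or to CAGAC, a SMAD motif, which do not overlap each other here.
NODAL: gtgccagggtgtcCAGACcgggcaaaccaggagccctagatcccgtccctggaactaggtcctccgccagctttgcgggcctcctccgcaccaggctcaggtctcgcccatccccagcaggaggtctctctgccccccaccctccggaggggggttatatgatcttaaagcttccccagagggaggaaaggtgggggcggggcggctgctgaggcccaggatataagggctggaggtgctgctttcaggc
CER1: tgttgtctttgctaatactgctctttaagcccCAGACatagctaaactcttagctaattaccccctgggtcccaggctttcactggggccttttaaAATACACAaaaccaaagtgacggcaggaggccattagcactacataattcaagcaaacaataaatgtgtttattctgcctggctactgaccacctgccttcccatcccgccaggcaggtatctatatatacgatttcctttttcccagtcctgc
GDF3: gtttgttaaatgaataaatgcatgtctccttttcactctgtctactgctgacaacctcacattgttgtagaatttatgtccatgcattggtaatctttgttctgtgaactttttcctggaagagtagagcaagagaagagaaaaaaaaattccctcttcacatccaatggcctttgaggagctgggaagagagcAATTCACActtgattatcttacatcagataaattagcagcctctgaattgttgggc
The FOXH1 letters were matched once in the CER1 window, as AATACACA starting 154 bases before the start, and once in the GDF3 window, as AATTCACA starting 56 bases before it. The SMAD letters were matched once for NODAL, 237 bases before the start, and once for CER1, 218 bases before it. Of 35116 promoters of this length, 2.89% held the FOXH1 letters and 38.0% the SMAD letters, so the latter are common. A match describes letters only. LEFTY1, LEFTY2 and FOXH1 had no entry.

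In hESCs, NODAL, LEFTY1, LEFTY2 and CER1 were higher in all 3 edited genotypes than in hHAR123, by 1.36- to 2.83-fold in mean CPM. GDF3 passed the test in HAR123-KO alone, and FOXH1 in none of the 3 comparisons. Each pair of genotypes was compared by edgeR's quasi-likelihood test, with p-values adjusted by Benjamini-Hochberg over all genes tested, and a gene is said to have risen or fallen at an adjusted p under 0.01. By this measure 5 of the 6 genes rose in HAR123-KO, against 7.06% of all 20832 genes tested, 4 rose in cHAR123, against 7.72% of 20935, and 4 rose in mHAR123, against 9.02% of 21139. The median log2 fold change of the 6 genes was 0.78, 0.81 and 0.51 in HAR123-KO, cHAR123 and mHAR123, and that of all genes tested was 0.00, 0.01 and 0.01. With a log2 fold change over 1 also required, CER1 was called in HAR123-KO (background of higher calls 0.960%), LEFTY2 and CER1 in cHAR123 (0.626%), and no member in mHAR123 (1.03%). The 3 comparisons share the 3 hHAR123 libraries and are not independent of each other. In bulk RNA, more cells that express a gene and more RNA per cell cannot be told apart.

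**Figure D1:**
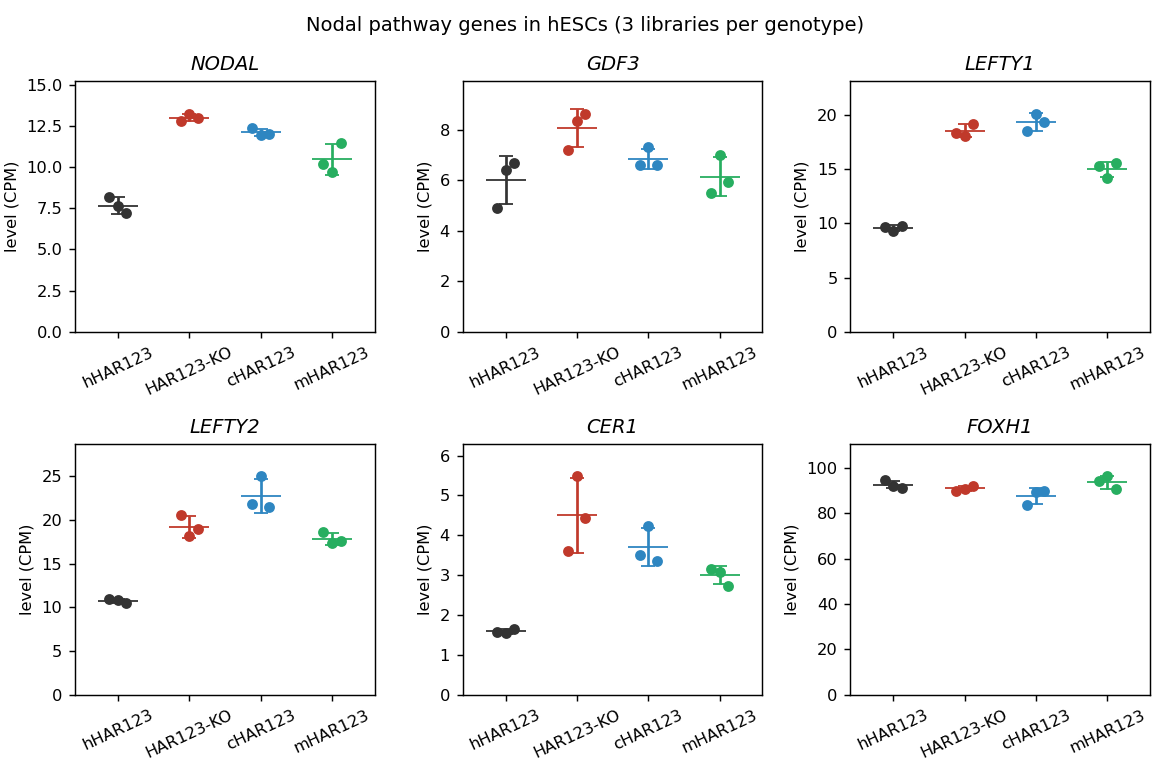
Level in CPM (linear axes from 0) of each gene in the 12 hESC libraries, by genotype, with points for libraries and bars for the mean ± SD (n = 3). For NODAL, LEFTY1, LEFTY2 and CER1 the 3 hHAR123 libraries lie below every library of the edited genotypes, whereas FOXH1 stays between 83.6 and 96.2 CPM in every library. The share of all genes whose libraries separate in this way was not computed, here and for the single genes below.

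NODAL encodes the ligand itself. Its level in the 3 hHAR123 hESC libraries was 8.18, 7.62 and 7.19 CPM. It was 12.8, 13.2 and 13.0 CPM in HAR123-KO, 12.36, 11.95 and 12.01 CPM in cHAR123, and 10.2, 9.69 and 11.5 CPM in mHAR123. Every edited library lay above every hHAR123 library. The log2 fold change was 0.75 ± 0.08 (SE) in HAR123-KO (adjusted p = 6.34e-10, edgeR's quasi-likelihood test), 0.63 ± 0.08 in cHAR123 (adjusted p = 8.75e-08) and 0.41 ± 0.08 in mHAR123 (adjusted p = 0.000171). The levels ran in the order HAR123-KO, cHAR123, mHAR123 and hHAR123. Of neighbours in this order, HAR123-KO and cHAR123 (adjusted p = 0.369, same test) and cHAR123 and mHAR123 (adjusted p = 0.239) did not pass the test. NODAL shares 698 exonic bases with an antisense gene, ENSG00000280401, and the strand setting of the counting was not stated, so their reads cannot be told apart. ENSG00000280401 had a mean of 1.505 CPM in hHAR123 hESCs and did not pass the test in any of the 3 comparisons (adjusted p = 0.917, 0.556 and 0.235).

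GDF3 encodes another ligand of the family, which also uses the co-receptor and can act as a BMP inhibitor. It was at 4.92, 6.41 and 6.71 CPM in hHAR123 hESCs and at 7.20, 8.37 and 8.63 CPM in HAR123-KO. The lowest HAR123-KO library thus stood above the highest hHAR123 library, but by less than the range within either genotype. GDF3 rose by 0.41 ± 0.10 on the log2 scale in HAR123-KO (adjusted p = 0.00265, edgeR's quasi-likelihood test). This call was lost with DESeq2 (adjusted p = 0.0467), with all 24 libraries in one edgeR fit (adjusted p = 0.0142), without hHAR123 replicate 1 (adjusted p = 0.0442) and without HAR123-KO replicate 3 (adjusted p = 0.0275). The levels of 6.61, 7.31 and 6.62 CPM in cHAR123 and of 5.48, 6.99 and 5.95 CPM in mHAR123 overlapped those of hHAR123. The log2 fold changes there were 0.15 ± 0.10 (adjusted p = 0.307, same test) and -0.02 ± 0.11 (adjusted p = 0.898).

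LEFTY1 encodes an antagonist that binds Nodal and its co-receptor and is itself a target of the pathway. It stood at 9.69, 9.28 and 9.77 CPM in hHAR123 hESCs, at 18.3, 18.1 and 19.2 CPM in HAR123-KO, at 18.5, 20.1 and 19.4 CPM in cHAR123 and at 15.2, 14.2 and 15.6 CPM in mHAR123. No edited library overlapped hHAR123, and the mHAR123 libraries lay below those of both other edited genotypes. The rise on the log2 scale was 0.93 ± 0.07 in HAR123-KO (adjusted p = 2.98e-14, edgeR's quasi-likelihood test), 0.98 ± 0.07 in cHAR123 (adjusted p = 1.82e-14) and 0.61 ± 0.07 in mHAR123 (adjusted p = 3.42e-09). Between the highest genotypes, cHAR123 and HAR123-KO, the log2 difference was 0.06 ± 0.06 (adjusted p = 0.612).

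LEFTY2, the neighbouring gene, encodes another antagonist of the same kind. It stood at 10.9, 10.9 and 10.5 CPM in hHAR123 hESCs, at 20.5, 18.1 and 18.9 CPM in HAR123-KO, at 21.79, 24.98 and 21.50 CPM in cHAR123 and at 18.6, 17.4 and 17.6 CPM in mHAR123. Again no edited library overlapped hHAR123, and cHAR123 was the highest genotype. The log2 fold change was 0.81 ± 0.07 in HAR123-KO (adjusted p = 1.37e-12, edgeR's quasi-likelihood test), 1.05 ± 0.07 in cHAR123 (adjusted p = 2.42e-15) and 0.69 ± 0.07 in mHAR123 (adjusted p = 1.79e-11). LEFTY1 and LEFTY2 are near-identical in part, with 26.8% of the 50-base windows of LEFTY1 transcripts also found in LEFTY2 and 21.6% of those of LEFTY2 found in LEFTY1, so that the division of reads between them is uncertain. The sum of both counts does not depend on how counted reads were divided. It rose by 0.87 ± 0.05, 1.02 ± 0.05 and 0.65 ± 0.05 on the log2 scale in HAR123-KO, cHAR123 and mHAR123. Any reads dropped because they matched both genes are missing from the sum, and how such reads were handled is not given. Annotated genes that overlap LEFTY1 (882 bases) and LEFTY2 (175 bases) on the same strand held no counts and at most 2 counts per library.

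CER1 encodes Cerberus, a secreted protein that binds Nodal and BMP ligands. Per length it was the lowest of the 6 genes, with 50, 51 and 58 reads in hHAR123 hESCs, or 1.58, 1.54 and 1.65 CPM. The 3 libraries of HAR123-KO had 3.6, 5.47 and 4.42 CPM, those of cHAR123 3.49, 4.24 and 3.36 CPM and those of mHAR123 3.16, 3.09 and 2.73 CPM. All edited libraries lay above hHAR123, and HAR123-KO had the widest spread. CER1 showed the largest fitted changes among the 6 genes in each of the 3 comparisons, with log2 fold changes of 1.49 ± 0.15 in HAR123-KO (adjusted p = 3.36e-10, edgeR's quasi-likelihood test), 1.18 ± 0.16 in cHAR123 (adjusted p = 2.14e-07) and 0.88 ± 0.16 in mHAR123 (adjusted p = 2.23e-05). The order was HAR123-KO, cHAR123, mHAR123 and hHAR123, in which HAR123-KO and cHAR123 (adjusted p = 0.127) and cHAR123 and mHAR123 (adjusted p = 0.453) did not pass the test.

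FOXH1 (ENSG00000160973, chr8:144473412-144475849) encodes the DNA-binding cofactor of the SMADs. Its level was 94.5, 92.2 and 91.1 CPM in hHAR123 hESCs, 89.7, 90.8 and 92.2 CPM in HAR123-KO, 83.6, 89.5 and 89.7 CPM in cHAR123 and 94.4, 96.2 and 90.5 CPM in mHAR123. The cHAR123 libraries lay below those of hHAR123 and the other genotypes overlapped it. The log2 fold change was -0.05 ± 0.03 in HAR123-KO (adjusted p = 0.395, edgeR's quasi-likelihood test), -0.11 ± 0.04 in cHAR123 (adjusted p = 0.0229) and -0.02 ± 0.03 in mHAR123 (adjusted p = 0.649). The cHAR123 value passed with all 24 libraries in one fit (adjusted p = 0.00599). FOXH1 shares 791 exonic bases with KIFC2 on the opposite strand, and their reads cannot be told apart without the strand setting.

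**Figure D2:**
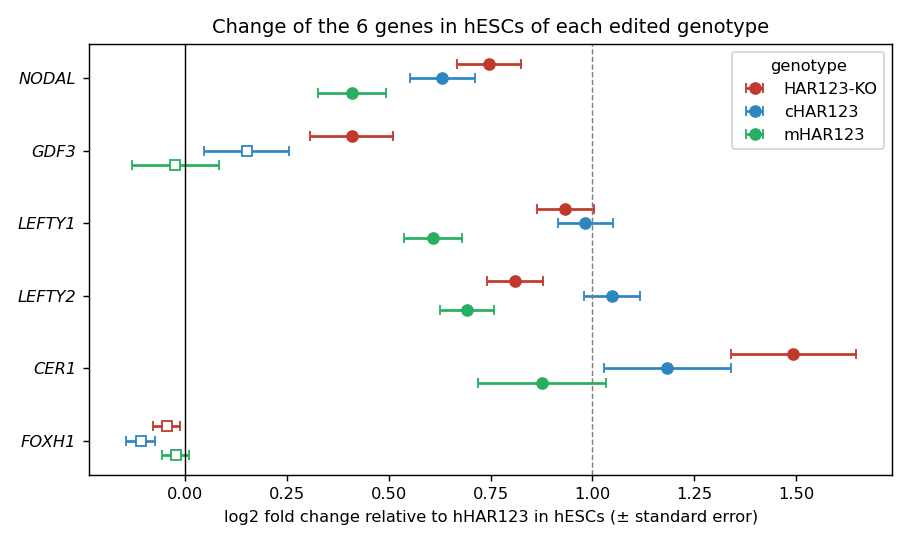
Log2 fold change relative to hHAR123 in hESCs (x axis, ± SE) of each gene in the 3 edited genotypes (n = 3 libraries per group), with filled circles for an adjusted p under 0.01, open squares for the others and a dashed line at 1. NODAL, LEFTY1, LEFTY2 and CER1 lie to the right of 0 in all 3 genotypes, from 0.41 for NODAL in mHAR123 to 1.49 for CER1 in HAR123-KO.

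In RPKM (CPM per kilobase of exon), the scale on which genes can be compared, FOXH1 was the most abundant of the 6 in hHAR123 hESCs at 45.9 ± 0.84 RPKM (SD, n = 3). It was followed by LEFTY1 at 5.07 ± 0.14, GDF3 at 4.87 ± 0.77, LEFTY2 at 4.71 ± 0.10, NODAL at 3.67 ± 0.24 and CER1 at 1.29 ± 0.05 RPKM. GDF3, which had the widest spread, overlapped LEFTY1 and LEFTY2, whereas the 3 libraries of LEFTY1 lay above those of LEFTY2, within the uncertain division of reads between these 2 genes. In HAR123-KO the order was FOXH1 at 45.1 ± 0.60, LEFTY1 at 9.80 ± 0.31, LEFTY2 at 8.40 ± 0.53, GDF3 at 6.53 ± 0.62, NODAL at 6.23 ± 0.10 and CER1 at 3.65 ± 0.76 RPKM. Of these, only GDF3 and NODAL did not differ beyond their spread.

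The edited genotypes also differed among themselves, and most of these differences were lower values in mHAR123. Between mHAR123 and HAR123-KO, 4 of the 6 genes passed the test, all lower in mHAR123 (background of lower calls 3.84%), with log2 fold changes of -0.33 for NODAL (adjusted p = 0.00306, edgeR's quasi-likelihood test), -0.32 for LEFTY1 (adjusted p = 0.000838), -0.61 for CER1 (adjusted p = 0.00231) and -0.43 for GDF3 (adjusted p = 0.00384). With DESeq2 the values for NODAL (adjusted p = 0.026), CER1 (adjusted p = 0.029) and GDF3 (adjusted p = 0.0387) did not pass. Each of these 4 calls was also lost without at least 1 library, LEFTY1 only without mHAR123 replicate 2 (adjusted p = 0.0116). Between mHAR123 and cHAR123, LEFTY1 (-0.38, adjusted p = 0.000152, same test) and LEFTY2 (-0.36, adjusted p = 0.000246) were lower in mHAR123 (background of lower calls 0.348%). The LEFTY2 call was lost with DESeq2 (adjusted p = 0.0112) and without cHAR123 replicate 2 (adjusted p = 0.0153). Between cHAR123 and HAR123-KO, LEFTY2 alone passed and was higher in cHAR123 by 0.25 on the log2 scale (adjusted p = 0.00636, background of higher calls 3.81%). It did not pass with DESeq2 (adjusted p = 0.0564), with all 24 libraries in one fit (adjusted p = 0.0123), or without HAR123-KO replicate 2 (adjusted p = 0.06), HAR123-KO replicate 3 (adjusted p = 0.0138) or cHAR123 replicate 2 (adjusted p = 0.122).

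Across the 12 hESC libraries the levels of NODAL, LEFTY1, LEFTY2 and CER1 moved together, with Pearson's r of 0.86 to 0.97 between any pair of them in log2 CPM. The r of GDF3 with these 4 genes was 0.34 to 0.63, and that of FOXH1 with the other 5 was -0.63 to -0.20. These values are a description over 12 libraries that share the 4 genotypes, so that a difference between genotypes alone can set them. Of 17508 genes with a mean of at least 1 CPM, those most like NODAL were PCDHB5 (r = 0.971), PCSK5 (0.967) and LEFTY1 (0.956). Those most like LEFTY1 were PCDHB5 (0.986), UAP1L1 (0.974) and FZD5 (0.974), those most like LEFTY2 were COL6A3 (0.982), TMEM63A (0.974) and FAM157C (0.971), and those most like CER1 were COL12A1 (0.956), CCN1 (0.956) and DACT1 (0.955). Between 80 and 99 genes had an r over 0.9 with each of these 4 genes. GDF3 had 1 such gene, CLMP (0.913), followed by GM2A (0.881) and SPATA5 (0.876), and FOXH1 had 3, SETD1B (0.913), BSG (0.902) and GAL3ST3 (0.902). Over all 24 libraries the same measure mainly reads the stage, as 4938 to 5361 of 17512 genes had an r over 0.9 with each member. The co-receptor gene TDGF1 was then among the 3 genes most like NODAL (r = 0.996).

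Marker genes of other cell types were measured in the same hESC libraries. The summed level of 7 endoderm markers was 2.41 to 2.73 CPM in hHAR123 and 2.07 to 2.55 CPM in the edited genotypes, with 6 of the 7 under 1 CPM in each genotype, and that of 7 mesoderm markers was 117.0 to 120.6 and 112.6 to 125.2 CPM. Nearly all of the mesoderm sum was KDR, with means of 115.6 CPM in hHAR123, 118.5 in HAR123-KO, 112.2 in cHAR123 and 109.6 in mHAR123. Of the 7 mesoderm markers, 5 were under 1 CPM in mHAR123 and 4 in each other genotype. The summed levels of the 7 pluripotency markers (4125 to 4197 CPM in hHAR123, 4020 to 4234 CPM in the edited genotypes) overlapped as well, but single markers differed. ZFP42, a pluripotency-associated zinc finger gene, rose from 131.6 ± 2.79 CPM in hHAR123 to 198.6 ± 3.87 in HAR123-KO, 187.0 ± 5.79 in cHAR123 and 181.5 ± 3.63 CPM in mHAR123 (SD, n = 3), with log2 fold changes of 0.57 (adjusted p = 1.35e-19, edgeR's quasi-likelihood test), 0.48 (adjusted p = 2.18e-15) and 0.42 (adjusted p = 1.89e-16). The markers that fell were POU5F1 in HAR123-KO (-0.13), POU5F1, LIN28A and DPPA4 in cHAR123 (-0.08 to -0.10) and POU5F1, NANOG and DPPA4 in mHAR123 (-0.08 to -0.20), that is 1, 3 and 3 of the 7, against 5.29%, 8.60% and 10.2% of all genes tested that fell. The 8 neuroectoderm markers summed to 55.1 to 60.1 CPM in hHAR123 and to 43.6 to 49.0 CPM in the edited genotypes, which did not overlap. How often such sums separate in this way was not computed. Most of the hHAR123 sum was OTX2 (34.9 CPM) and ZNF521 (16.9 CPM), and 5 of the 8 markers were under 1 CPM in each genotype. Of 5 tested, 3 fell in HAR123-KO, 2 in cHAR123 and 2 in mHAR123, against the same backgrounds, and 0 rose. The part of these marker levels in the values of NODAL, LEFTY1, LEFTY2 and CER1 was not tested.

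In neuroectoderm, 5 of the 6 genes had at most 11 reads in any library. Over the 12 libraries NODAL had 0 to 3 reads, with 9 libraries at 0, and GDF3 had 0 to 3 reads, with 10 at 0. LEFTY1 had 1 to 11 reads, LEFTY2 had 0 to 7, with 2 libraries at 0, and CER1 had 0 to 3, with 5 at 0. In hESCs the lowest library had 253 reads of NODAL, 156 of GDF3, 307 of LEFTY1, 346 of LEFTY2 and 50 of CER1. FOXH1 kept 30 to 65 reads per neuroectoderm library, against 2094 to 3256 in hESCs. All 6 genes fell in all 4 genotypes with an adjusted p under 0.01 and a log2 fold change under -1 by edgeR's quasi-likelihood test, a call that 21.2% of the genes tested received in hHAR123, 19.1% in HAR123-KO, 20.8% with the cHAR123 label and 20.7% with the mHAR123 label. As the genes passed the filter on low counts through the hESC libraries, where they are high, this count is no support by itself.

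**Figure D3:**
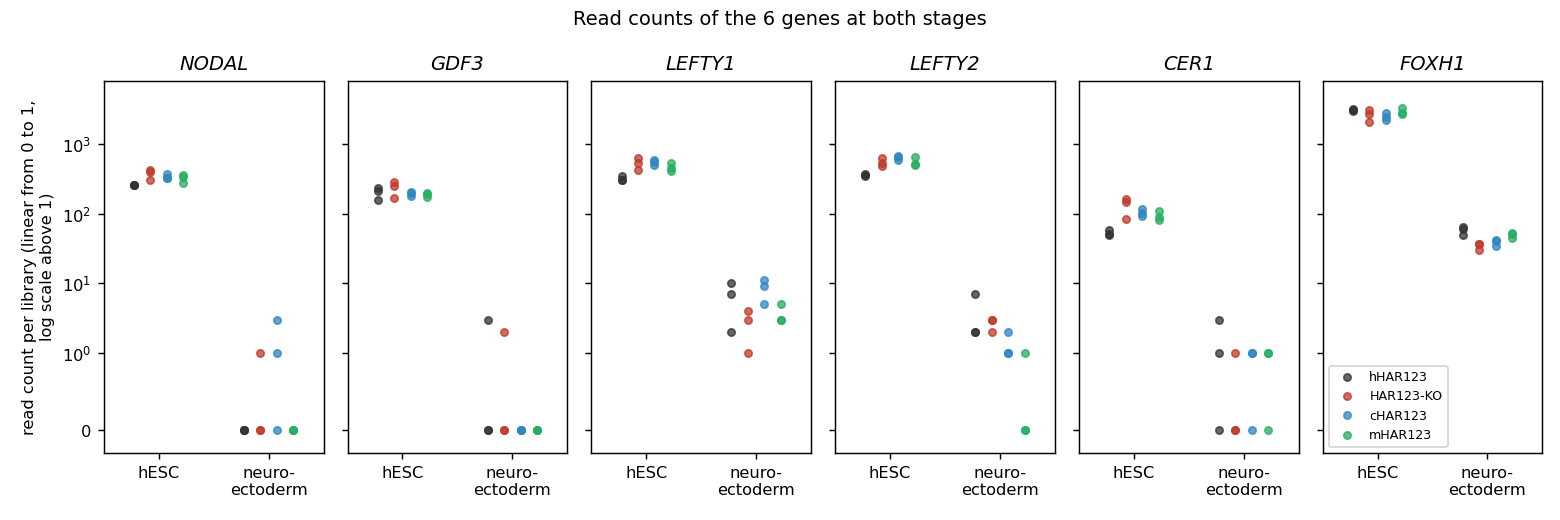
Read counts of the 6 genes per library (1 point each, 3 per genotype and stage) in hESCs and in neuroectoderm, by labelled genotype, on an axis that is linear from 0 to 1 and logarithmic above. The neuroectoderm points of NODAL, GDF3 and CER1 lie at 0 to 3 reads, whereas those of FOXH1 lie at 30 to 65 reads.

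The size of the fall is given from counts summed over the 3 libraries of a group and scaled by their totals, with exact 95% intervals that cover counting error only. These folds lack the TMM normalization of the fitted values and differ from them. Between stages, the median log2 fold change of all genes with library totals was 0.34 in hHAR123, 0.23 in HAR123-KO, 0.25 with the cHAR123 label and 0.20 with the mHAR123 label. With TMM it was 0.05, 0.03, 0.04 and 0.03. The ligand NODAL fell from 765 reads in hHAR123 hESCs to 0 in neuroectoderm, or at least 175-fold, where the floor was 3 counts over the group. In HAR123-KO NODAL went from 1116 reads to 1, a 933-fold difference (167 to 36900), in cHAR123 from 1021 to 4 in the libraries with that label, a 215-fold difference (83.6 to 789), and in mHAR123 from 964 to 0, at least 255-fold. GDF3, the other ligand, went from 605 reads to 3 in hHAR123, a 138-fold difference (47.1 to 672). In HAR123-KO it went from 699 to 2, a 292-fold difference (80.6 to 2418), and it was at least 162-fold and 149-fold lower in the libraries labelled cHAR123 and mHAR123. With so few reads left, the genotypes cannot be ranked by the fall of either ligand.

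Among the antagonists, LEFTY1 kept the most reads. It went from 959 to 19 reads in hHAR123, a 34.6-fold difference (22.04 to 57.8), and from 1593 to 8 in HAR123-KO, a 166-fold difference (84.3 to 386). The difference was 54.9-fold (37.0 to 85.1) with the cHAR123 label and 100.1-fold (55.8 to 201) with the mHAR123 label. LEFTY2 went from 1077 to 11 reads in hHAR123, a 67.1-fold difference (37.4 to 135), and from 1637 to 8 in HAR123-KO, a 171-fold difference (86.7 to 397). In the libraries labelled cHAR123 and mHAR123 4 reads and 1 read of LEFTY2 were left, a 403-fold difference (157 to 1480) and a 1312-fold one (235 to 51850). CER1 had 4, 1, 2 and 2 reads left over the hHAR123, HAR123-KO, cHAR123 and mHAR123 groups. The CER1 difference was 27.3-fold (10.4 to 101) in hHAR123 and 327-fold (58.4 to 12950) in HAR123-KO.

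FOXH1 went from 9262 to 174 reads in hHAR123, a 36.5-fold difference (31.4 to 42.7), and from 7806 to 102 in HAR123-KO, a 64.0-fold difference (52.6 to 78.6). It was 53.6-fold lower (44.6 to 65.0) with the cHAR123 label and 46.7-fold lower (39.7 to 55.4) with the mHAR123 label. The fitted log2 fold changes, which use TMM, were -5.48 ± 0.07, -6.19 ± 0.08, -5.95 ± 0.08 and -5.71 ± 0.07 in the same order (adjusted p = 1.21e-40, 4.17e-59, 2.25e-43 and 5.55e-57, edgeR's quasi-likelihood test). KIFC2, the gene on the opposite strand, did not pass the test between stages in any genotype (adjusted p of 0.0764 to 0.586).

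FOXH1 was also the one member with enough reads in neuroectoderm to be tested between genotypes. It had 2.33, 2.48 and 2.78 CPM in hHAR123, 1.551, 1.498 and 1.226 CPM in HAR123-KO, 1.68, 1.69 and 1.52 CPM in the libraries labelled cHAR123 and 1.96, 2.15 and 1.90 CPM in those labelled mHAR123. The hHAR123 libraries lay above all others, and HAR123-KO overlapped the libraries labelled cHAR123. FOXH1 fell by 0.78 on the log2 scale (SE 0.20) in HAR123-KO (adjusted p = 0.00081, edgeR's quasi-likelihood test), where 19.9% of 21362 genes fell. This call was lost with DESeq2 (adjusted p = 0.0268). The log2 fold change against hHAR123 was -0.62 ± 0.19 in the libraries labelled cHAR123 (adjusted p = 0.0185) and -0.29 ± 0.18 in those labelled mHAR123 (adjusted p = 0.261), and the former passed with all 24 libraries in one fit (adjusted p = 0.00601). KIFC2, the overlapping gene, did not pass in HAR123-KO neuroectoderm (-0.09 ± 0.09, adjusted p = 0.421). Its means there were 12.5 ± 0.80 CPM in hHAR123 and 11.4 ± 1.20 CPM in HAR123-KO (SD, n = 3), above those of FOXH1. Without the strand setting, the part of KIFC2 in the few FOXH1 reads cannot be told, and the KIFC2 test does not address it. With no filter on low counts, edgeR gave an adjusted p under 0.01 to 0 of 28 values of the other 5 genes over the 6 pairs of genotypes in neuroectoderm and an unadjusted p under 0.05 to 3, and DESeq2 to 0 and 2, so that at these counts a difference was not detectable. In HAR123-KO neuroectoderm the summed level of 6 neural crest markers was 1197 to 1208 CPM, against 105 to 112 CPM in hHAR123, and that of the 8 neuroectoderm markers was 857.5 to 878.3 CPM against 1532 to 1557 CPM. Of the 8 neuroectoderm markers 7 fell (background 19.9%), but ZIC1 rose from 17.7 ± 0.34 to 88.2 ± 1.25 CPM (SD, n = 3). The part of all these markers in the FOXH1 value was not tested.

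Whether the fall between stages differed from that in hHAR123 was tested as an interaction of stage and genotype over 12 libraries each. In HAR123-KO 2 of the 6 genes passed, LEFTY1 and FOXH1, both with a larger fall (background of lower calls 13.9%). With the cHAR123 label (3.07%) 0 passed in edgeR and 0 in DESeq2, and 2 had an unadjusted p under 0.05 in each, while LEFTY2 passed with the mHAR123 label (3.75%) in edgeR but not in DESeq2 (adjusted p = 0.0121). As the neuroectoderm names are uncertain, an interaction under a replacement label may mix cHAR123 and mHAR123 cells. The FOXH1 interaction was -0.74 ± 0.17 in HAR123-KO (adjusted p = 0.000425 by the same edgeR test). It was -0.50 ± 0.17 for the cHAR123 label (adjusted p = 0.0442) and -0.25 ± 0.16 for the mHAR123 label (adjusted p = 0.299). The values of LEFTY1 in HAR123-KO (-2.16 ± 0.58, adjusted p = 0.00211) and of LEFTY2 with the mHAR123 label (-3.79 ± 0.99, adjusted p = 0.0039) combine the higher hESC level with a few reads in neuroectoderm. Both genes passed the filter on low counts through the hESC libraries, where they are higher in the edited genotypes. Their calls are therefore no support by themselves for a fall that depends on genotype. LEFTY1 had 2, 7 and 10 reads in the hHAR123 neuroectoderm libraries against 4, 3 and 1 in HAR123-KO, and LEFTY2 had 7, 2 and 2 reads against 0, 1 and 0 with the mHAR123 label.

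The rest of the Nodal and activin pathway was described from lists of receptors, SMAD factors, related ligands and target genes. In HAR123-KO hESCs, 1 of the 5 receptor and co-receptor genes tested rose and none fell, 1 of 11 SMAD2/3 transducers and modulators rose and 2 fell, 3 of 12 ligands, binders and convertases rose and 1 fell, and 0 of 4 mesendoderm genes induced by Nodal passed, with 1, FOXA2, at an unadjusted p under 0.05 in edgeR (log2 fold change -0.61 ± 0.20, adjusted p = 0.0287). Of all genes tested in this comparison 7.06% rose and 5.29% fell, so that with lists of 4 to 12 genes several of these counts are near the background. The median log2 fold changes of the lists were 0.00, -0.01, 0.09 and 0.32, against 0.00 for all genes tested. The receptor gene that rose was TDGF1, the co-receptor for Nodal, from 378.0 ± 10.7 CPM in hHAR123 to 519.6 ± 19.3 CPM in HAR123-KO (SD, n = 3), a log2 fold change of 0.44 ± 0.02 (adjusted p = 4.75e-18, edgeR's quasi-likelihood test). TDGF1 has processed copies in the genome, and its reads could be divided among them. INHBA, the subunit of activin A, rose by 1.32 ± 0.20 (adjusted p = 3.24e-06) from 0.83 ± 0.05 to 2.09 ± 0.18 CPM. PCSK5, a convertase that cleaves precursors of the family, rose by 0.59 ± 0.05 (adjusted p = 1.17e-12), and SKIL, a SMAD corepressor and pathway target, by 0.20 ± 0.03 (adjusted p = 3.74e-07). TGIF2, another corepressor, fell by 0.20 on the log2 scale (adjusted p = 5.15e-05).

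The same genes gave other values with the replaced HAR123. TDGF1 rose by 0.24 in cHAR123 (adjusted p = 1.24e-09, edgeR's quasi-likelihood test) and 0.30 in mHAR123 hESCs (adjusted p = 1.24e-13), and PCSK5 by 0.48 (adjusted p = 8.72e-10) and 0.38 (adjusted p = 3.52e-08). TGIF2 fell by 0.16 (adjusted p = 0.00187) and 0.15 (adjusted p = 0.00134). INHBA had log2 fold changes of 0.62 (adjusted p = 0.0409) and 0.55 (adjusted p = 0.0691), and SKIL of 0.07 (adjusted p = 0.0768) and 0.05 (adjusted p = 0.192). Of the 4 mesendoderm genes tested, 0 passed in cHAR123, and 1, FOXA2, fell in mHAR123 (background of lower calls 10.2%).

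**Figure D4:**
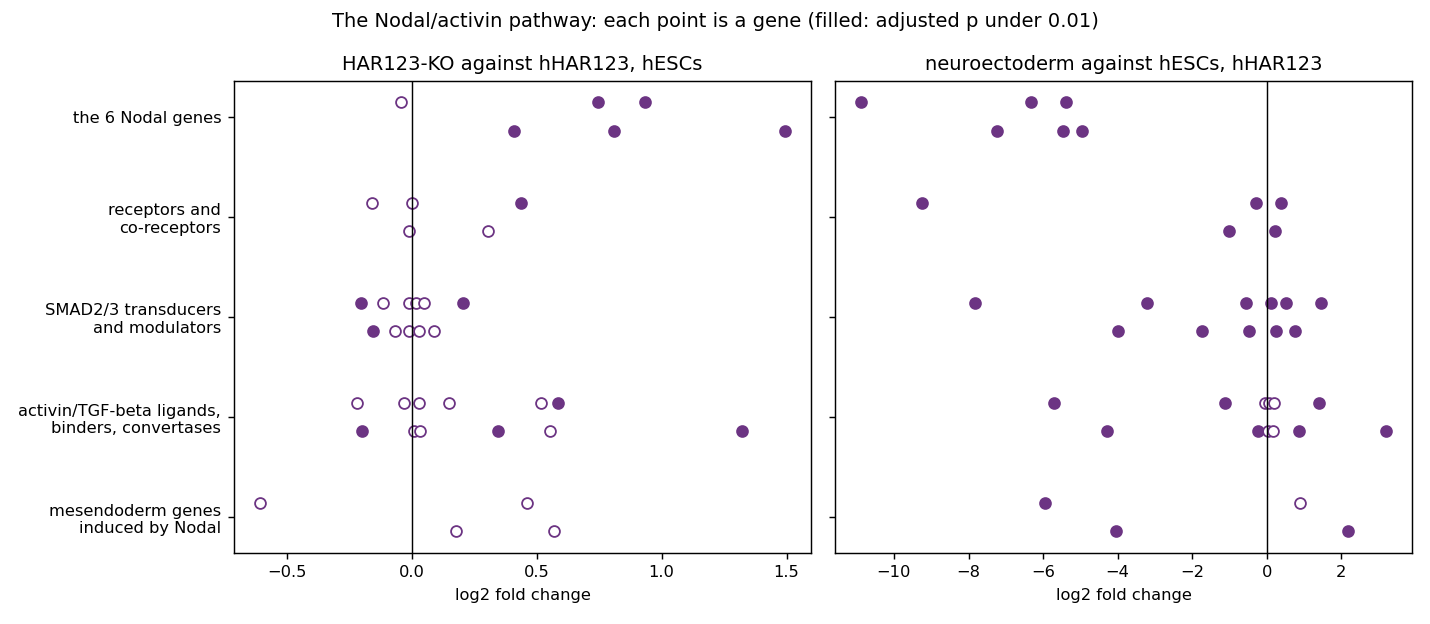
Log2 fold change of the tested genes of each Nodal and activin pathway list (1 point per gene, filled at an adjusted p under 0.01) in HAR123-KO against hHAR123 hESCs (left) and in neuroectoderm against hESCs of hHAR123 (right). All 6 Nodal genes lie left of 0 on the right, where fitted values of genes with no or few neuroectoderm reads depend on the prior count of the fit.

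Between the stages of hHAR123, 3 of the 5 receptor genes fell and 2 rose, 6 of 11 SMAD factors fell and 5 rose, 4 of 12 ligands, binders and convertases fell and 3 rose, and 2 of 4 mesendoderm genes fell and 1 rose. At the same threshold 39.7% of all 22280 genes tested fell and 40.3% rose, so that these counts are near or below the background or rest on few genes. The median log2 fold changes were -0.30, -0.48, 0.04 and -1.58, against -5.90 for the 6 Nodal genes, which is the same with NODAL at its bound, and 0.05 for all genes. TDGF1 fell by 9.24 on the log2 scale (adjusted p = 3.57e-48, edgeR's quasi-likelihood test), from 378.0 ± 10.7 to 0.77 ± 0.24 CPM, and ACVR1C, which encodes ALK7, fell by 1.02 (adjusted p = 0.000363). PMEPA1, a target that inhibits SMAD signalling, fell by 7.84 (adjusted p = 3.24e-35) and SKIL fell by 3.98 (adjusted p = 2.37e-43). INHBA fell by 5.70 (adjusted p = 1.8e-10), INHBE, which encodes another activin subunit, fell by 4.29 (adjusted p = 1.62e-26), and the mesendoderm factors FOXA2 and MIXL1 fell by 5.94 (adjusted p = 4.58e-14) and 4.03 (adjusted p = 5.32e-10) from means of 1.71 and 1.03 CPM in hESCs.

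In HAR123-KO neuroectoderm, against hHAR123, 1 of 5 receptor genes rose and none fell, 2 of 11 SMAD factors rose and 6 fell, 3 of 12 ligands, binders and convertases rose and 4 fell, and 1 of 3 mesendoderm genes rose and 2 fell. Of all genes tested 24.2% rose and 19.9% fell, and most of the counts of genes that rose are near the former. The medians were -0.13, -0.22, 0.13 and -2.22, against 0.00 for all genes tested. ACVR1B, which encodes ALK4, rose by 0.29 (adjusted p = 7.32e-07, edgeR's quasi-likelihood test). PMEPA1 rose by 3.42 (adjusted p = 3.92e-12) from 0.19 ± 0.13 to 2.01 ± 0.25 CPM, and SMAD2 fell by 0.65 on the log2 scale (adjusted p = 1.14e-23). MSTN, the gene for myostatin, rose by 4.39 (adjusted p = 4.64e-14) from 0.10 ± 0.02 to 2.17 ± 0.60 CPM, so the size of this change rests on a low baseline. TGFB1 fell by 0.81 (adjusted p = 6.52e-09). LHX1 and GSC, transcription factors of the mesendoderm list, fell by 2.30 (adjusted p = 2.71e-06) and 2.22 (adjusted p = 1.39e-05), from means of 1.02 and 0.96 CPM. The neural crest and neuroectoderm marker values given for FOXH1 apply to these genes as well, and their part was not tested.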

How the data were processed

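RNA-seq of 24 libraries (4 genotypes, 2 stages, 3 libraries each) was used. The authors depleted ribosomal RNA, made directional paired-end libraries, aligned reads to GRCh38 with STAR 2.5.2b and counted exonic reads per Ensembl gene with featureCounts, and the deposited values are raw counts with no normalization. Reads lost in alignment cannot be seen, and the strand setting is not given in the sources used here. Groups were taken from the sample labels, and 0 sample columns went unused. An entry broken over 3 lines was left out, which leaves 61551 genes, 61398 of them with a symbol.

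Each pair of groups was fitted alone in edgeR 4.0.16 (R 4.3.3), with filterByExpr, TMM and the quasi-likelihood F test, and with Benjamini-Hochberg adjustment over all genes tested. The adjusted p threshold was 0.01, with an absolute log2 fold change over 1 for a gene called differentially expressed (DEG). The SE was obtained as the absolute log2 fold change over the root of F. The interaction was fitted over 12 libraries. CPM are counts scaled by the library total, and similar genes were ranked by Pearson's r of TMM-scaled log2 CPM with a prior count of 2. The scripts were tested on simulated data, and preparation used Python 3.11.15. Alternatives were DESeq2 1.42.0, DESeq2 size factors, library totals, no filter, a single fit of 24 libraries, a block for the replicate number, a threshold of 0.05, summed LEFTY counts, and leaving out each library in turn.

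All 6 genes are described in every comparison. From each other pathway list, the 2 genes with the largest change past the threshold were named in HAR123-KO at both stages and between stages in hHAR123. The members and lists were chosen with earlier results of these data known.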

Additional observations from a re-analysis of the deposited data

Results flagged for a closer look

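In 3 cases the fall between hESCs and neuroectoderm differed from that in hHAR123 by the interaction of stage and genotype (edgeR's quasi-likelihood test, adjusted p under 0.01 over all genes tested). These were LEFTY1 in HAR123-KO (log2 interaction -2.16), FOXH1 in HAR123-KO (-0.74) and LEFTY2 with the mHAR123 label (-3.79). The last was not called by DESeq2 (-4.04, adjusted p = 0.0121). LEFTY1 had 8 neuroectoderm reads in all in HAR123-KO against 19 in hHAR123, and LEFTY2 had 1 with the mHAR123 label against 11, whereas FOXH1 had 102 against 174. LEFTY1 and LEFTY2 passed the filter on low counts through the hESC libraries, so their calls are no support by themselves. The genotype behind the mHAR123 label in neuroectoderm is uncertain, so the LEFTY2 value may set mHAR123 hESCs against cHAR123 neuroectoderm.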

How the results depend on the processing

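The rises of NODAL, LEFTY1, LEFTY2 and CER1 in the 3 edited genotypes kept their direction and their side of the threshold in all 159 alternative values computed, and the falls between stages in all 316. Over 71 results for single members, 864 of 903 alternative values did so, 27 lost the call, 6 gained one and 6 changed sign. The number of members called DEGs in cHAR123 hESCs was 2, and 1 to 3 with a library left out, 1 without cHAR123 replicate 2. For the interaction it rose from 0 to 1 with the cHAR123 label at a threshold of 0.05, and fell from 1 to 0 with the mHAR123 label in DESeq2, where LEFTY2 had -4.04 (adjusted p = 0.0121). In mHAR123 hESCs, GDF3 (-0.02) and FOXH1 (-0.02), neither of which passed the test, were 0.02 and 0.02 without TMM and spanned -0.14 to 0.06 and -0.04 to 0.00 with a library left out. Leave-one-out was not run for the interactions. The cause of these shifts was not tested.

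DEGs over all genes were fewer with DESeq2 in hESCs (HAR123-KO 152 against 246, cHAR123 78 against 178, mHAR123 121 against 259, cHAR123 against HAR123-KO 19 against 56, mHAR123 against HAR123-KO 20 against 51), in neuroectoderm (cHAR123 label 115 against 208, mHAR123 label 138 against 219, between these labels 14 against 55) and for the cHAR123 interaction (119 against 186). At a threshold of 0.05 they were 111 and 93 for the comparisons of cHAR123 and mHAR123 with HAR123-KO in hESCs, and 377 and 487 for the cHAR123 and mHAR123 interactions (mHAR123 229 at 0.01).

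Replicate numbers did not pair the libraries. Deviations of same-numbered libraries correlated by -0.024 to 0.037 over 16 pairs of groups, 0 of which passed 0.1 throughout, and in 4 of them every library was most like its own number. With the replicate block, NODAL in HAR123-KO hESCs had a log2 fold change of 0.75 and DEGs there numbered 257 against 246.

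Depth limits the neuroectoderm comparisons, in which NODAL, GDF3, LEFTY1, LEFTY2 and CER1 had at most 11 reads per library.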
